A study of Mus musculus with 9 samples.

Results

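The RNA of 10 mouse genes of the hypoxia-inducible factor (HIF) pathway was followed in 3T3-L1 cells, an established line of adipocyte precursors described in the labels as wild-type fibroblasts. The genes were chosen by symbol, and all 10 were found among the 28965 gene symbols of the table. They are Hif1a, the oxygen-sensing prolyl hydroxylases Egln1 and Egln3, the mitophagy receptors Bnip3 and Bnip3l, and the hypoxia targets P4ha1, Vegfa, Adm, Ndrg1 and Ankrd37. The cells were left at confluence for 2 days and then kept for 24 h with dexamethasone and insulin, each at 0.1 µg/mL, and isobutylmethylxanthine at 30 µg/mL, which together start adipocyte differentiation. All groups received this cocktail. The MDI group had it with the albumin vehicle, the OA group with albumin-bound oleic acid at 100 µM, and the OA_T0 group with that oleic acid and T0901317 at 5 µM, a synthetic compound that activates the LXR nuclear receptors (liver X receptors). T0901317 alone was not among the treatments, and the labels name no group kept at low oxygen. Each group had 3 libraries of polyadenylated RNA. The labels do not say whether these were separate cultures, and the tests may therefore reflect only technical spread.

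HIF-1 is a transcription factor made of an oxygen-regulated alpha subunit, encoded by Hif1a, and a constant beta subunit. When oxygen is present, prolyl hydroxylases such as those encoded by Egln1 and Egln3 mark the alpha subunit for destruction through the von Hippel-Lindau protein. Control is therefore largely on the protein, which RNA does not measure. The factor binds a short core, ACGTG or GCGTG, near genes of glycolysis, blood vessel growth, collagen processing and mitochondrial turnover. BNIP3 and NIX, the product of Bnip3l, sit in the outer mitochondrial membrane and bind LC3-family proteins, which leads mitochondria into autophagosomes. In adipose tissue, VEGF-A is the main signal for the growth of blood vessels.

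The deposited values were normalised counts per gene, with an estimated depth of 17.98 to 59.89 M fragments per library. Markers of preadipocytes and fibroblasts were present, with 12 of 12 above the detection floor in each group, while 10 adipocyte markers were measured, of which 7 were above it in MDI, 9 in OA and 6 in OA_T0. Adipoq and Plin1 stayed at or below 6.76 in every library, but Fabp4, Lpl, Cd36 and Lipe were called higher in OA than in MDI. In OA_T0 vs OA, Cd36, Fabp4 and Lipe were called lower and Pparg higher. Lpl, Fabp4 and Pparg were called higher in OA_T0 than in MDI. A ribosomal RNA gene had 0.649% of the total in OA replicate 1 and 3.06% in OA_T0 replicate 3, against 4.40% to 5.97% in the other 7 libraries. These 2 libraries stood apart, and the tests of the 10 genes and of the wider lists were also run without them. The summed adipocyte markers also moved with the treatments, from 6989 to 7700 in MDI, 12950 to 14060 in OA and 10700 to 11570 in OA_T0, with Adipoq, Plin1, Cidec and Retn at or near the floor. Lpl made up most of these sums, with means of 5424, 9358 and 8651 in the same order. The summed preadipocyte and fibroblast markers were 314100 to 341200, 332000 to 367200 and 292300 to 340300 in the same order. The part of either list in the results was not tested. Endothelial markers summed to at most 30.2 and macrophage and leukocyte markers to at most 160.3 in any library. In bulk RNA, fewer cells of a type and less RNA per cell cannot be told apart.

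With oleic acid, Bnip3 and P4ha1 rose above the vehicle level and Vegfa fell below it. When T0901317 was added to oleic acid, the same 3 genes turned the other way against OA: Bnip3 and P4ha1 fell and Vegfa rose, and Bnip3l and Egln1 also fell while Adm rose. The RNA of Hif1a itself passed no test. The sizes were modest, between 1.17-fold and 1.801-fold among the calls, which were made with limma at a Benjamini-Hochberg adjusted p below 0.05. OA vs MDI and OA_T0 vs OA share the OA libraries, and OA_T0 vs MDI shares libraries with each of them, so opposite signs in the first 2 are not independent of each other.

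In OA vs MDI, 2 of the 10 genes were higher and 1 was lower, that is 20.0% and 10.0%, against 3.43% higher and 3.36% lower among the 15002 genes tested. The groups did not overlap for 7 of the 10, against 26.1% of the tested genes. In OA_T0 vs OA, 2 were higher and 4 were lower, or 20.0% and 40.0%, against 8.27% and 6.84%, and the groups did not overlap for 5, against 32.1%. In OA_T0 vs MDI, only Adm was higher and none was lower, against 1.25% and 1.36%, and the groups did not overlap for 2, against 23.5%. The 10 genes and the wider lists below were chosen with earlier results of these data known. Their shares beside those of all tested genes are therefore a description and not a test. At an unadjusted p below 0.05, 1 gene was lower in OA_T0 than in MDI, Bnip3l. The counts in OA vs MDI fell to 0 higher and 0 lower without MDI replicate 1, to 1 higher and 0 lower without any 1 of the OA libraries, and to 0 lower without MDI replicate 2. The single call in OA_T0 vs MDI became 0 without any 1 of the MDI libraries, the first OA library, or OA_T0 replicates 1 or 2. The counts in OA_T0 vs OA stayed within 1.5 times whichever library was left out. The counts over all tested genes also rested on single libraries. In OA vs MDI the 514 higher and 504 lower became 220 and 300 without MDI replicate 1, 211 and 155 without MDI replicate 2, and 279 and 287 without OA replicate 1, with 317 lower without OA replicate 2 and 324 higher without OA replicate 3. In OA_T0 vs OA the 1240 higher and 1026 lower became 684 and 526 without OA replicate 1, 757 and 635 without OA replicate 2, and 580 and 474 without OA_T0 replicate 1. In OA_T0 vs MDI the 188 higher and 204 lower became 68 and 61 without MDI replicate 1, 70 and 52 without MDI replicate 2, and 66 and 44 without OA_T0 replicate 1, with 284 higher without MDI replicate 3. The median log2 fold change of the 10 genes was 0.12 in OA vs MDI, -0.12 in OA_T0 vs OA and -0.03 in OA_T0 vs MDI, where the tested genes had 0.01, -0.00 and 0.02.

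**Figure D1:**
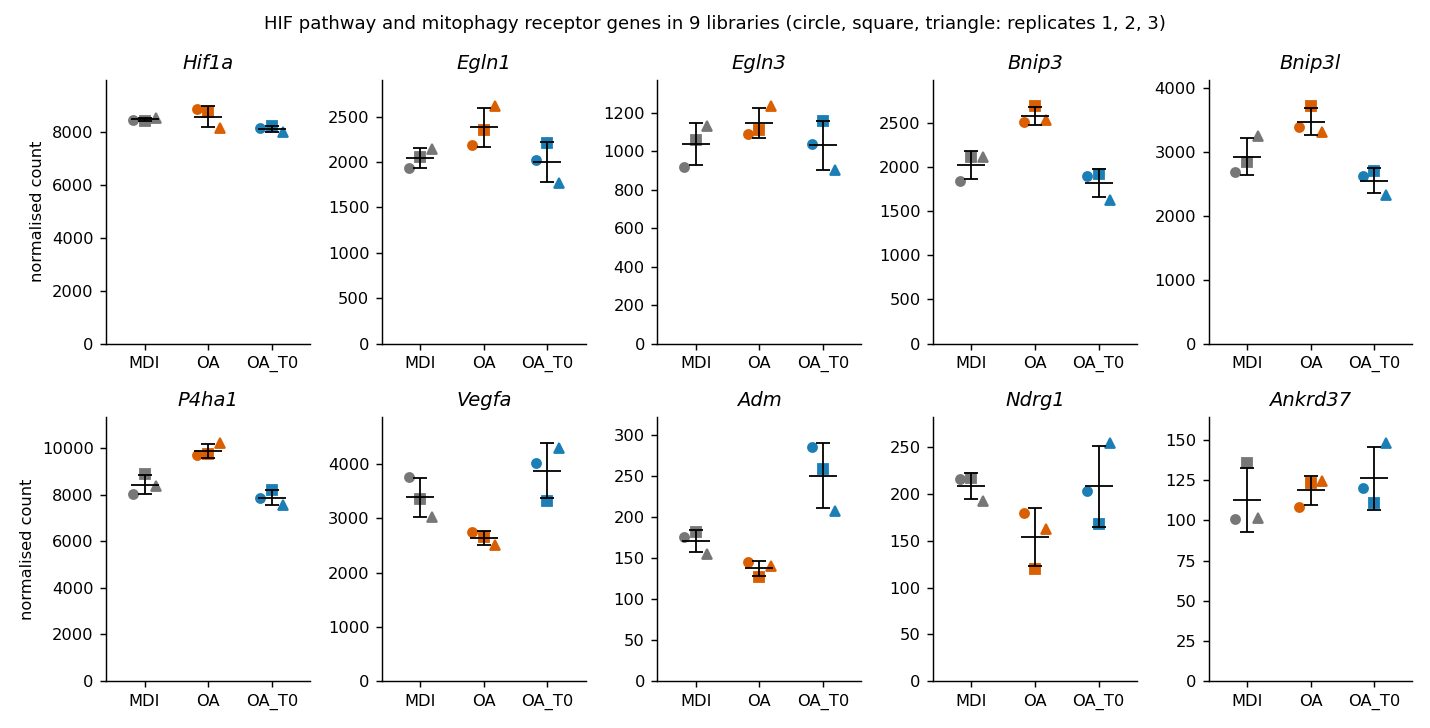
Normalised count (vertical axis, from 0) of each of the 10 genes in the 9 libraries, with points for single libraries (circle, square and triangle for replicates 1, 2 and 3) and bars for the mean and SD of 3 libraries. Bnip3, Bnip3l and P4ha1 peak in OA, Vegfa and Adm are lowest in OA, and Hif1a is nearly level, between 8009 and 8896.

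The sequences just before the start sites of the 4 hypoxia targets that were called in opposite directions are shown. A HIF site more than 250 bases before the start, or inside the gene, would lie outside these windows. Windows of 250 bases before the start were taken from RefSeq on GRCm38.p6, and 8 of the 10 genes have one in the table used, all but Bnip3l and Ndrg1. The build in the submitters' notes is mm9, so these coordinates are not those of the read alignment. Each window reads 5′ to 3′ on the strand of its gene, and capitals mark the core ACGTG or GCGTG on either strand, which reads CACGT or CACGC where it lies on the other strand. The windows are chr7:138909507-138909756 (minus strand) for Bnip3, chr10:59323046-59323295 (plus) for P4ha1, chr17:46032378-46032627 (minus) for Vegfa and chr7:110627407-110627656 (plus) for Adm.
Bnip3: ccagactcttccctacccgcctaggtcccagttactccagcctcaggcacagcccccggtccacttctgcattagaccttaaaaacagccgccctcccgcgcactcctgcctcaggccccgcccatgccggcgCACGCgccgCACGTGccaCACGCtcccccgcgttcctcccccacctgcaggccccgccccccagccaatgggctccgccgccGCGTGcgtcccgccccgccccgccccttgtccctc
P4ha1: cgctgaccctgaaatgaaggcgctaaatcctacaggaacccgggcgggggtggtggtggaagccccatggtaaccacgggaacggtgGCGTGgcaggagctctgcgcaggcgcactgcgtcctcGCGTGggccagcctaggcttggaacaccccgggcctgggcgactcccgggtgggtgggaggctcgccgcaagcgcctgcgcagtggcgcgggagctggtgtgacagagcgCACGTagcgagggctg
Vegfa: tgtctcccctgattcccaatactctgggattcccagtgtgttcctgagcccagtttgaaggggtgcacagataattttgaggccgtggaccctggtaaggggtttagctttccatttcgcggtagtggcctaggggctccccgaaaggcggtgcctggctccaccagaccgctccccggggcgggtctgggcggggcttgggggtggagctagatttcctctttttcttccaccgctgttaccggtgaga
Adm: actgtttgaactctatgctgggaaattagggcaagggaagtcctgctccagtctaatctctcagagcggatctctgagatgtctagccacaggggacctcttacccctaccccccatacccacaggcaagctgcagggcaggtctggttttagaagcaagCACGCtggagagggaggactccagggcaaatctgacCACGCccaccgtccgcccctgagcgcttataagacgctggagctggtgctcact
The Bnip3 window held 5 matches, 1 pair of which is the palindrome CACGTG counted on both strands, and they began 117, 108, 107, 99 and 35 bases before the start. The P4ha1 window held 3, beginning 163, 126 and 16 bases before the start, and the Adm window 2, at 90 and 54. The Vegfa window held 0. A second RefSeq start of Vegfa, with the window chr17:46025164-46025413, had 2 matches. On the minus strand this window lies downstream of the first Vegfa start. Among the other genes, Ankrd37 had 4 matches, Hif1a 3, Egln1 2 and Egln3 1. In Hif1a too, 1 pair of the matches is the palindrome CACGTG counted on both strands. The core was in 8 of these 9 windows and in 38.6% of 32851 windows of the same length (ACGTG in 16.6%, GCGTG in 28.2%, and CACGTG, which contains ACGTG, in 6.02%). The 8 include the second Vegfa window, which lies downstream of the first start. Both cores contain CG, and the 32851 windows were not matched to these genes for CG content. An excess of the core in these genes was not tested. A match of 5 letters is a description of the window and not a binding site, and it was present in genes called in either direction.

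Of the oxygen-sensing genes, Hif1a was the most even. Its normalised counts were 8482, 8452 and 8560.0 in MDI, 8896, 8763 and 8155 in OA, and 8163, 8227 and 8009 in OA_T0. OA overlapped both other groups, while all OA_T0 libraries lay below all MDI libraries, by a margin that did not pass the test (limma log2 fold change -0.06 ± 0.05 SE, adjusted p = 0.553). The 95% intervals were -0.10 to 0.13 in OA vs MDI and -0.19 to 0.03 in OA_T0 vs OA.

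Egln1 encodes PHD2, the main HIF prolyl hydroxylase in most cells and itself a HIF target. It read 1933, 2061 and 2143 in MDI, 2189, 2349 and 2616 in OA, and 2024, 2206 and 1773 in OA_T0. Every OA library was above every MDI library, but the difference did not pass (log2 fold change 0.22 ± 0.08 SE, adjusted p = 0.135 in limma). OA_T0 was lower than OA by 0.25 on the log2 scale (adjusted p = 0.0498), although the highest OA_T0 library exceeded the lowest OA library. That call was close to the threshold and was lost in 11 of 19 alternatives, with adjusted p from 0.0116 to 0.183. The libraries whose omission ended it were MDI replicates 1 (0.0539) and 2 (0.0735), OA replicates 2 (0.0979) and 3 (0.146), and OA_T0 replicates 1 (0.125) and 3 (0.183). With the 2 libraries that stood apart both left out, Egln1 did not pass in OA_T0 vs OA (0.132) and passed in OA vs MDI (0.0478).

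Egln3 encodes PHD3, a hydroxylase known for strong induction by hypoxia. Its values were 919, 1059 and 1132 in MDI, 1092, 1111 and 1234 in OA, and 1037, 1155 and 899.8 in OA_T0. All groups overlapped. Its estimates had the signs of those of Egln1, 0.15 (95% interval -0.06 to 0.35) in OA vs MDI and -0.16 (-0.36 to 0.05) in OA_T0 vs OA, and neither passed.

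The mitophagy receptors were highest in OA. Bnip3 read 1839, 2117 and 2112 in MDI, 2503, 2688 and 2528 in OA, and 1901, 1914 and 1629 in OA_T0. All OA libraries lay above all others, and MDI and OA_T0 overlapped. Bnip3 was 1.27-fold higher in OA than in MDI (log2 fold change 0.35 ± 0.07 SE, adjusted p = 0.0114 in limma). It was 1.42-fold lower in OA_T0 than in OA (log2 fold change -0.51 ± 0.07 SE, adjusted p = 3.52e-04). The fall passed in each of 19 alternatives, with adjusted p of at most 0.00582. The rise was lost without MDI replicate 1, the lowest MDI library (adjusted p = 0.0586), and over the alternatives its adjusted p ran from 0.0033 to 0.0591.

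Bnip3l, the paralog of Bnip3 best known for clearing mitochondria from maturing red blood cells, was 2679.8, 2841 and 3245 in MDI, 3379, 3709 and 3310.25 in OA, and 2615, 2692 and 2322 in OA_T0. Here too OA lay above both other groups, and MDI and OA_T0 overlapped. It fell 1.36-fold from OA to OA_T0 (log2 fold change -0.45 ± 0.08 SE, adjusted p = 0.00132), with adjusted p of at most 0.014 over 20 alternatives. The estimate in OA vs MDI was 0.25 ± 0.08 SE and did not pass (adjusted p = 0.0685). It passed without MDI replicate 3, the highest MDI library (0.0182), and without OA_T0 replicate 3 (0.0393), over a range of 0.0182 to 0.257.

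A processed pseudogene, Bnip3l-ps, has its own row in the table, and reads of a near-identical copy may be divided between the rows, so the value of Bnip3l is uncertain to that extent. The pseudogene row held 901 to 1066 in MDI, 1204 to 1247 in OA and 883 to 984 in OA_T0. Its log2 fold changes were 0.29 in OA vs MDI (adjusted p = 0.0281 in limma) and -0.41 in OA_T0 vs OA (adjusted p = 0.00186). With the 2 rows summed, a choice made after the values were seen, the estimate in OA vs MDI was 0.26 and passed (adjusted p = 0.0357), and that in OA_T0 vs OA was -0.44 (adjusted p = 6.46e-04). For the Bnip3l row alone, quantile normalisation also brought the estimate past the threshold (0.24, adjusted p = 0.0409), so the call in OA vs MDI depended on the scaling and on how these reads are assigned.

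P4ha1 encodes the catalytic alpha subunit of collagen prolyl 4-hydroxylase, which stabilises the collagen triple helix. It read 8054, 8882 and 8382 in MDI, 9707, 9745 and 10211 in OA, and 7884, 8199 and 7573 in OA_T0. OA was again above all other libraries, and the lowest MDI value lay within the OA_T0 range. P4ha1 was 1.17-fold higher in OA than in MDI (log2 fold change 0.23 ± 0.06 SE, adjusted p = 0.0254 in limma) and 1.25-fold lower in OA_T0 than in OA (log2 fold change -0.33 ± 0.06 SE, adjusted p = 0.00143). The fall passed in all 19 alternatives (adjusted p of at most 0.0237). The rise was lost without any 1 of MDI replicates 1 (0.0931) and 3 (0.0547) and OA replicates 1 (0.0681), 2 (0.0547) and 3 (0.0747), and without the 2 libraries that stood apart (0.0594), with adjusted p from 0.0152 to 0.0931 over the alternatives.

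Of the 2 secreted vascular factors, Vegfa was called lower with oleic acid and higher once T0901317 was added, whereas Adm was called only in the comparisons of OA_T0. Vegfa, the growth factor for endothelial cells, was 3770.1, 3359 and 3035 in MDI, 2756, 2662 and 2505 in OA, and 4026, 3324 and 4299 in OA_T0. All OA libraries were below all others, and MDI and OA_T0 overlapped. Vegfa was 1.28-fold lower in OA than in MDI (log2 fold change -0.35 ± 0.09 SE, adjusted p = 0.0295 in limma). It was 1.46-fold higher in OA_T0 than in OA (log2 fold change 0.55 ± 0.09 SE, adjusted p = 9.47e-04), and this rise passed in all 19 alternatives with adjusted p of at most 0.0145. The fall with oleic acid was lost without any 1 of MDI replicates 1 (0.143) and 2 (0.108) and OA replicates 1 (0.0569), 2 (0.0648) and 3 (0.0985), and at equal totals per library (0.0579), over a range of 0.00863 to 0.143.

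Adm encodes adrenomedullin, a peptide that widens blood vessels. It was low, with 176, 182 and 155 in MDI, 145, 127 and 140.5 in OA, and 286, 258 and 208 in OA_T0, and as few as 95 estimated fragments in a library. The groups did not overlap in any of the 3 comparisons. Adm had the largest change of the 10 genes, 1.801-fold higher in OA_T0 than in OA (log2 fold change 0.85 ± 0.14 SE, adjusted p = 6.85e-04 in limma), and passed there in all 19 alternatives (adjusted p of at most 0.00811). Against MDI, OA_T0 was 1.46-fold higher (log2 fold change 0.54 ± 0.14 SE, adjusted p = 0.0476), which makes Adm the only one of the 10 genes called in that comparison. This call was lost in 11 of 19 alternatives, with adjusted p from 0.0109 to 0.251, and by leaving out any 1 of MDI replicates 1 (0.143), 2 (0.115) and 3 (0.101), OA replicate 1 (0.0648), and OA_T0 replicates 1 (0.251) and 2 (0.106). The lower level in OA than in MDI did not pass (log2 fold change -0.31 ± 0.14 SE, adjusted p = 0.205).

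Ndrg1, a stress-responsive gene much used as a hypoxia marker, read 216, 218 and 193 in MDI, 180.1, 119 and 163 in OA, and 204, 168 and 254 in OA_T0. All OA libraries were below all MDI libraries, while OA_T0 overlapped both groups. The estimates had the signs of those of Vegfa, -0.46 ± 0.17 SE in OA vs MDI and 0.44 ± 0.17 SE in OA_T0 vs OA, but did not pass (adjusted p = 0.126 and 0.0943 in limma). OA_T0 vs OA passed without OA_T0 replicate 2, its lowest OA_T0 library (0.0325), over a range of 0.0325 to 0.348. OA vs MDI passed with OA replicate 1 and OA_T0 replicate 3 both left out (0.0451), over a range of 0.0451 to 0.362.

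Ankrd37, a small ankyrin repeat protein gene induced by HIF-1, read 101, 136 and 101 in MDI, 108, 123 and 124 in OA, and 120.0, 111 and 148 in OA_T0. All groups overlapped, and the largest estimate was 0.16 in OA_T0 vs MDI (95% interval -0.18 to 0.51). The interval was -0.26 to 0.44 in OA vs MDI, and a library held as few as 90 estimated fragments. Changes inside these bounds are not excluded. Ankrd37 overlaps Ufsp2 on the opposite strand, which read 1403 to 1827. The libraries were strand-specific per the labels, but whether the counting used strand is not given in the sources used here, so reads of the overlap may be shared. Hif1a overlaps an antisense gene, Gm15283 which read 26.5 to 57.8.

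**Figure D2:**
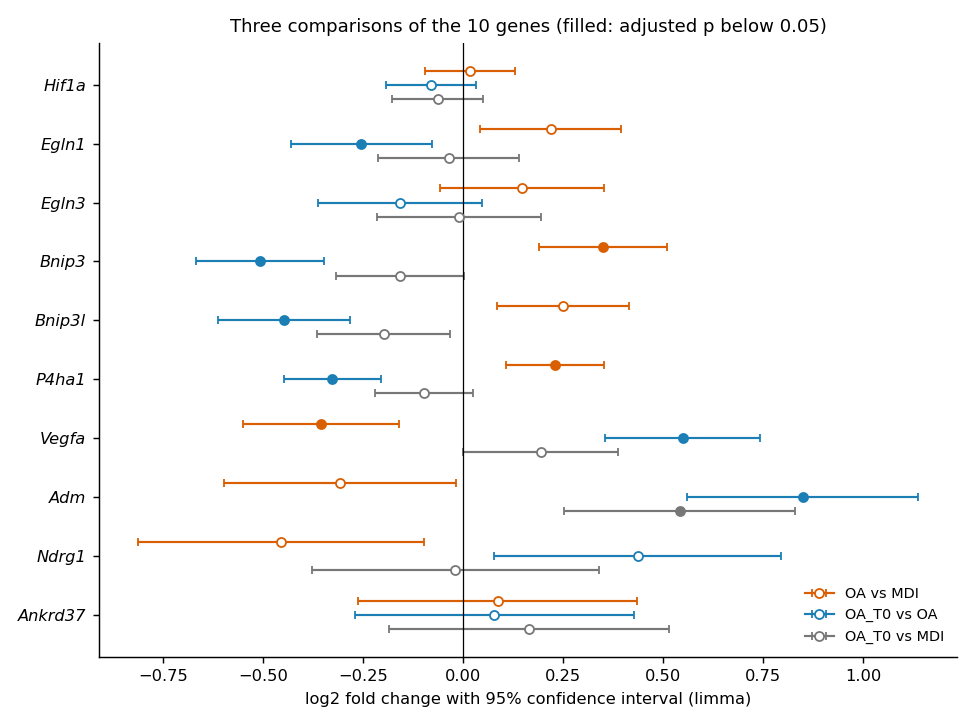
Log2 fold change (horizontal axis) of the 10 genes in OA vs MDI (orange), OA_T0 vs OA (blue) and OA_T0 vs MDI (grey), with 95% confidence intervals from limma and filled points for an adjusted p below 0.05. For Bnip3, P4ha1 and Vegfa the orange and blue points are filled on opposite sides of 0, and in grey only Adm, at 0.54, is filled.

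In OA_T0 vs MDI, 9 of the 10 genes had no called difference, which does not show that their levels were equal. The 95% interval of the log2 fold change was -0.32 to 0.00 for Bnip3, -0.36 to -0.03 for Bnip3l, -0.22 to 0.02 for P4ha1 and -0.00 to 0.39 for Vegfa.

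The divergence between genes can also be read inside each library, where the factor that scales the library drops out. The pairs were chosen after the values were seen and are a description with no test. The difference in log2(value + 1) between Bnip3 and Vegfa, which is not adjusted for transcript length, was -1.04, -0.67 and -0.52 in MDI, -0.14, 0.01 and 0.01 in OA, and -1.08, -0.80 and -1.40 in OA_T0. The OA libraries were the highest of the 9, and MDI and OA_T0 overlapped. Between P4ha1 and Vegfa the difference was 1.10 to 1.47 in MDI, 1.82 to 2.03 in OA and 0.82 to 1.30 in OA_T0. Between Bnip3 and Adm it was 3.38 to 3.76, 4.10 to 4.39 and 2.73 to 2.96 in the same order, with no overlap among the 3 groups. By contrast, the difference between Bnip3 and Bnip3l overlapped among the 3 groups, at -0.62 to -0.42 in MDI, -0.46 to -0.39 in OA and -0.51 to -0.46 in OA_T0. Between Vegfa and Adm the difference was 4.20 to 4.42 in MDI, 4.15 to 4.37 in OA and 3.68 to 4.36 in OA_T0. These groups overlapped as well, with OA_T0 replicates 1 and 2 at 3.81 and 3.68 and OA_T0 replicate 3 at 4.36.

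**Figure D3:**
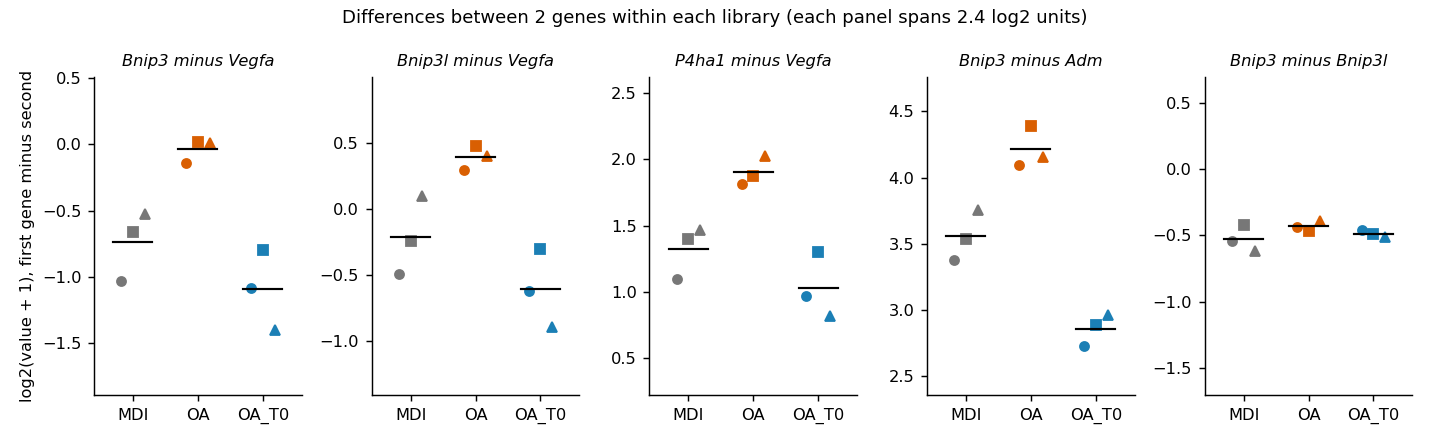
Difference in log2(value + 1) between 2 genes of the same library (vertical axis; each panel spans the same range) for 5 pairs, with points for single libraries and lines for group means. Bnip3, Bnip3l and P4ha1 minus Vegfa, and Bnip3 minus Adm, are highest in OA, while Bnip3 minus Bnip3l overlaps among the groups, between -0.62 and -0.39.

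Wider lists of the same pathways were set beside the 10 genes. The list of 21 other oxygen-sensing genes held HIF subunits, hydroxylases, ubiquitin ligases that act on them, and further genes such as Ep300, Cited2, Rack1 and Hsp90aa1. Among these 21, only Siah2 was lower in OA than in MDI and none was higher by limma (2 lower and 0 higher at an unadjusted p below 0.05). Siah2, a ubiquitin ligase that degrades prolyl hydroxylases, was 496 ± 38.4 in MDI, 351 ± 25.1 in OA and 568 ± 30.1 in OA_T0 (SD, n = 3). It fell by 0.50 on the log2 scale with oleic acid (adjusted p = 0.00367) and rose by 0.69 from OA to OA_T0 (adjusted p = 1.13e-04), and both calls held in 19 of 19 alternatives. Its relative Siah1a was the only other gene of the list called in OA_T0 vs OA, at 0.23 (adjusted p = 0.0447), and lost its call without any 1 library except MDI replicate 3 (adjusted p from 0.0550 to 0.134), and with the 2 libraries that stood apart both left out (0.177). None of the list was lower in OA_T0 vs OA (3 at an unadjusted p below 0.05). None was called in OA_T0 vs MDI by limma (2 higher and 1 lower at an unadjusted p below 0.05). The shares, 4.76% lower in OA vs MDI and 9.52% higher in OA_T0 vs OA, were near those of all tested genes, 3.36% and 8.27%.

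Of 47 other HIF targets tested, 7 were higher and 4 lower in OA vs MDI, 6 higher and 10 lower in OA_T0 vs OA, and 1 higher and 0 lower in OA_T0 vs MDI by limma (5 and 6 at an unadjusted p below 0.05). The shares higher and lower in OA vs MDI were 14.9% and 8.51%, against 3.43% and 3.36% of all tested genes. In OA_T0 vs OA they were 12.8% and 21.3%, against 8.27% and 6.84%. In OA_T0 vs MDI they were 2.13% and 0.0%, against 1.25% and 1.36%. Without MDI replicate 1 or MDI replicate 2 the 7 became 4. The medians were 0.15, -0.15 and 0.00. Angptl4, an inhibitor of lipoprotein lipase that fatty acids also induce through the PPAR receptors, stood far from the rest, at 1014 ± 106 in MDI, 12291 ± 1310.3 in OA and 949 ± 43.9 in OA_T0 (SD, n = 3). Its log2 fold changes were 3.60 with oleic acid (adjusted p = 5.90e-13) and -3.69 with T0901317 added (adjusted p = 4.06e-13). Fam162a, a mitochondrial protein gene, had the direction of Bnip3, with 0.34 in OA vs MDI (adjusted p = 0.00439).

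Hk2 and Slc2a1, of glucose phosphorylation and uptake, had the direction of Vegfa. Not all glucose genes of the list did. Most of its genes of glycolysis below hexokinase had positive estimates in OA vs MDI, none of them called by limma. A pyruvate dehydrogenase kinase gene of the list was called higher there. Hk2, which encodes hexokinase 2, was 1379.8 ± 138 in MDI, 849 ± 5.79 in OA and 1375 ± 175 in OA_T0 (SD, n = 3). It fell by 0.70 on the log2 scale with oleic acid (adjusted p = 2.82e-04) and rose by 0.69 from OA to OA_T0 (adjusted p = 1.41e-04). Slc2a1, the glucose transporter GLUT1, fell by 0.32 (adjusted p = 0.00383) and rose by 0.44 (adjusted p = 1.60e-04) in the same comparisons.

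These calls of Angptl4, Fam162a, Hk2 and Slc2a1 held in all 19 alternatives. Ddit4, an inhibitor of mTORC1 signalling, was the single target called in OA_T0 vs MDI, at 0.30 (adjusted p = 0.0320). It lost that call without MDI replicate 1 or 2 or OA_T0 replicate 1 or 2 (adjusted p from 0.0501 to 0.184), and without the 2 libraries that stood apart (0.0572).

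The 28 other mitophagy and LC3-family genes tested included receptors, and also genes that are neither receptors nor of that family, such as Pink1, Ulk1 and Becn1. Of the 28, 1 was higher and 0 lower in OA vs MDI, and 3 were higher and 2 lower in OA_T0 vs OA. None was called in OA_T0 vs MDI by limma. At an unadjusted p below 0.05, 5 were higher and 2 lower in OA vs MDI, and 6 were higher and 2 lower in OA_T0 vs OA. In OA_T0 vs MDI, 7 were higher and 0 lower at that threshold. The medians were 0.04, -0.00 and 0.07. These shares, 3.57% higher in OA vs MDI and 10.7% higher and 7.14% lower in OA_T0 vs OA, were near those of all tested genes, 3.43%, 8.27% and 6.84%. Gabarap, an LC3-family protein gene, was higher in OA than in MDI by 0.26 on the log2 scale (adjusted p = 0.0292). The call was lost without MDI replicate 1 or 2, OA replicate 1 or 3, or OA_T0 replicate 1 (adjusted p from 0.0502 to 0.142), and without the 2 libraries that stood apart (0.132).

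In OA_T0 vs OA the receptor Fundc1, which like BNIP3 sits in the outer mitochondrial membrane, had -0.31 (adjusted p = 0.0272) and the autophagy receptor Nbr1 -0.22 (adjusted p = 0.0253). Phb2, an inner-membrane receptor, had 0.26 (adjusted p = 0.0198) and the mitochondrial phosphatase gene Pgam5 0.25 (adjusted p = 0.00884). Of these, Fundc1 and Nbr1 lost their calls without OA replicate 1 or 2 or OA_T0 replicate 1 or 3 (adjusted p from 0.0540 to 0.134), Phb2 without OA replicate 1 or 2 or OA_T0 replicate 1 (from 0.0818 to 0.0961), and Pgam5 without OA_T0 replicate 1 (0.0690). With the 2 libraries that stood apart both left out, none of these 4 passed (adjusted p from 0.0806 to 0.227). The estimates of Bnip3 and Bnip3l in this comparison, -0.51 and -0.45, lay below the lowest of the 28, -0.31.

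Of 15 other VEGF and adrenomedullin ligands and receptors, 10 passed the filter on low values, and Kdr, the main signalling receptor of VEGF-A, was among the 5 that did not. None was called in OA vs MDI by limma (1 higher and 2 lower at an unadjusted p below 0.05), 1 was higher and 3 lower in OA_T0 vs OA, and 1 was lower and 0 higher in OA_T0 vs MDI (2 and 2 at an unadjusted p below 0.05). The shares in OA_T0 vs OA were 10.0% higher and 30.0% lower, against 8.27% and 6.84% of all tested genes. In OA_T0 vs MDI 10.0% were lower, against 1.36%. The ligand Vegfd rose with Vegfa from OA to OA_T0, by 0.38 on the log2 scale (adjusted p = 0.00371), and this held in all 19 alternatives. The ligand Vegfc had -0.25 (adjusted p = 0.0490) and lost its call without any 1 library except OA_T0 replicate 2 (adjusted p from 0.0543 to 0.178), and without the 2 libraries that stood apart (0.317).

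Calcrl, the receptor subunit through which adrenomedullin acts, was 642 ± 64.8 in MDI, 647 ± 72.5 in OA and 469 ± 16.5 in OA_T0 (SD, n = 3), so it was lowest where Adm was highest. It fell by 0.46 on the log2 scale in OA_T0 vs OA (adjusted p = 0.00525), in each of 19 alternatives. It fell by 0.45 in OA_T0 vs MDI (adjusted p = 0.0221), a call lost without MDI replicate 2 or 3 or OA_T0 replicate 1 or 2 (adjusted p from 0.0602 to 0.116). Nrp1, a co-receptor for VEGF-A, fell by 0.32 in OA_T0 vs OA (adjusted p = 0.00404) and lost its call only with OA replicate 1 and OA_T0 replicate 3 both left out (0.0545).

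**Figure D4:**
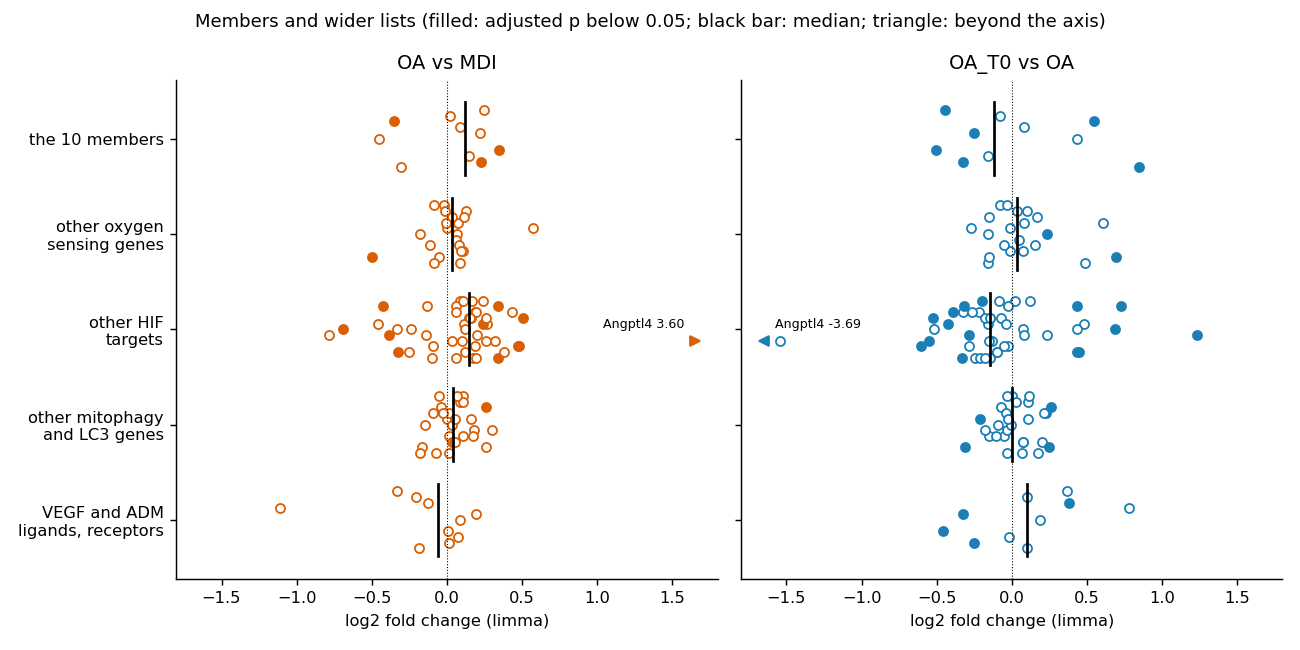
Log2 fold change (horizontal axis) of single genes in the 10-gene set and in 4 wider lists, for OA vs MDI (left) and OA_T0 vs OA (right), with filled points for an adjusted p below 0.05, black bars for list medians and triangles for values beyond the axis. The other HIF targets spread to both sides of 0 in each panel, with Angptl4 at 3.60 and -3.69, while the other mitophagy and LC3 genes stay between -0.31 and 0.30.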

How the data were processed

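Polyadenylated RNA of 9 libraries was sequenced. The deposited table holds a signal per gene, that is counts which the authors scaled by library and which are not whole numbers. The submitters' processing notes name CASAVA 1.8.2, TopHat, HTSeq, DESeq2 and the build mm9, without role or order. The step of each library was taken as its most frequent low value. Of the values between 5 and 50 steps, 63.1% to 70.7% lay within 0.05 steps of a whole multiple. Whole reads were therefore not recovered, and no count test was run. Depths and floors (3 fragments, 1.35 to 4.62 in value) are estimates from that step and cover counting error only.

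Values were tested as log2(value + 1), a scale that understates changes of low genes, for the 15002 genes with a mean of at least 10, using the trended variance model of limma (version 3.58.1, under R 4.3.3), in which the 3 groups share a spread. The p-values were two-sided and Benjamini-Hochberg adjusted over all tested genes. The procedure was tested on simulated data, drawn with independent noise for each gene and no shift shared by a library. That run therefore cannot show how far the calls depend on single libraries. All 10 genes are named, and up to 4 passing genes per wider list and comparison with the smallest adjusted p, except for 1 gene that is not reported here. The genes and lists were chosen with earlier results of these data known. Alternatives were pseudocounts of 0.5 and 5, no filter or a minimum of 50, equal totals, quantile normalisation, a replicate block, a fit restricted to the groups compared, robust variances, and leaving out libraries. The sum of Bnip3l and its pseudogene was added after the data were seen. Pathway symbols not in the table, such as Epo, were not analysed here.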

Additional observations from a re-analysis of the deposited data

How the results depend on the processing

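In OA_T0 vs OA the counts of 2 genes higher and 4 lower stayed within 1.5 times in every alternative. In OA vs MDI, 2 higher and 1 lower became 0 and 0 with no filter on low values, and equal totals gave 0 lower. Leaving out libraries gave 0 to 3 higher and 0 to 2 lower. The single gene higher in OA_T0 vs MDI became 0 with no filter, with quantile normalisation, at equal totals and with only the 2 groups compared, and was 0 to 1 when libraries were left out. The cause was not tested. No scaling moved the median of all tested genes by more than 0.1 on the log2 scale.

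With the replicate number as a block, the count higher in OA_T0 vs MDI was 0, where Adm had an adjusted p of 0.0560, and Egln1 in OA_T0 vs OA had 0.0622. Vegfc in OA_T0 vs OA had 0.0514, and no other call of the 10 genes or of the named genes of the wider lists changed. Bnip3l-ps was not run under the alternatives. Same-numbered libraries had correlations of their deviations between -0.256 and 0.259, and libraries with unlike numbers between -0.23 and 0.25. With 3 libraries per group, this could not settle whether the numbers paired the samples.

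Estimates near 0 that passed no test changed sign. Hif1a in OA vs MDI was -0.0181 with quantile normalisation and -0.0076 to 0.0551 when libraries were left out. The same omissions gave -0.109 to 0.048 for Egln1, -0.0966 to 0.0835 for Egln3 and -0.171 to 0.127 for Ndrg1 in OA_T0 vs MDI, and -0.104 to 0.167 for Ankrd37 in OA_T0 vs OA. With no filter, the counts over all genes were 233 higher and 234 lower in OA vs MDI (514 and 504 with the filter), 620 lower in OA_T0 vs OA (1026), and 72 higher and 38 lower in OA_T0 vs MDI (188 and 204); robust variances gave 132 lower in the last. Among other HIF targets, 3 were then higher in OA vs MDI (7 with the filter).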
